A study of Mus musculus with 36 samples.

Results

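Cyp2c29 and 4 further genes of the same family on mouse chromosome 19, Cyp2c37, Cyp2c50, Cyp2c54 and Cyp2c55, were examined in liver RNA of mice fed with or without tomato powder. The 5 genes were a fixed list out of 53715 gene identifiers in the count table, and 13 other Cyp2c genes and pseudogenes were measured beside them. The list was chosen by measured values of these libraries, and which values those were is not given in the sources used here. Contrasts with control were treated as used and are given for these genes as a description without a test. Tests were made of the variation from mouse to mouse inside a diet and of tangerine against red. Whether the choice drew on these too is not known, so their p-values are not independent evidence. All 5 genes passed the filter on low counts.

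The livers were from male C57BL/6 mice, 36 libraries in all, taken at an age of 10 weeks. Feeding began at 4 weeks of age with the purified AIN93G diet (control, 12 libraries), AIN93G with 10% red tomato powder (12 libraries) or AIN93G with 10% tangerine tomato powder (12 libraries). No library shared a mouse number with another. The labels give each library its own mouse number but state 11 to 12 mice a group beside 12 libraries a diet, a difference not explained in the sources used here; p-values measure the spread between these libraries. In whole liver, fewer cells of a type and less RNA per cell cannot be told apart.

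Cytochrome P450 enzymes of the 2C subfamily sit in the endoplasmic reticulum of hepatocytes, where they oxidise drugs, steroids and fatty acids. Several of them turn arachidonic acid into epoxides and hydroxylated products that act as lipid signals. In rodent liver many Cyp2c genes are raised by ligands or activators of the nuclear receptors CAR (encoded by Nr1i3) and PXR (encoded by Nr1i2), which bind DNA together with the retinoid X receptor RXRA.

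In GENCODE release M21 (GRCm38) all 5 genes are protein coding. Cyp2c55 lies farthest upstream, at chr19:39007019-39042693 on the plus strand. Cyp2c29 follows at chr19:39269405-39330713 on the plus strand, where its start overlaps the end of the pseudogene Cyp2c53-ps (chr19:39229254-39274985). Cyp2c37 (chr19:39992424-40012243, plus strand), Cyp2c54 (chr19:40037940-40073827, minus strand) and Cyp2c50 (chr19:40089688-40113950, plus strand) form a tight group farther along. Between Cyp2c29 and that group lie Cyp2c38, Cyp2c39, Cyp2c67, Cyp2c68, Cyp2c40 and Cyp2c69.

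The first 90 coding bases of each gene, read from the GENCODE transcripts, show how alike the genes are. Capitals mark bases that differ from Cyp2c29.
Cyp2c29: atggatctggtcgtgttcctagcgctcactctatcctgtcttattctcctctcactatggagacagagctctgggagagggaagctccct
Cyp2c37: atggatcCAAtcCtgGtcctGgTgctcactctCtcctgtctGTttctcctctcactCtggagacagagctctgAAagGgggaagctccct
Cyp2c50: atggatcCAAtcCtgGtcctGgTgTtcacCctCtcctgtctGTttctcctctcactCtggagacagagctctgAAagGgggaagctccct
Cyp2c54: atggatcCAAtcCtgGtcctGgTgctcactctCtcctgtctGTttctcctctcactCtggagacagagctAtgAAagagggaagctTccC
Cyp2c55: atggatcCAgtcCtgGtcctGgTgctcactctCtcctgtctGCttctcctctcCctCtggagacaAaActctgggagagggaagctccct
Over these 90 bases 14 differed from Cyp2c29 in Cyp2c37, 16 in Cyp2c50, 16 in Cyp2c54 and 13 in Cyp2c55, and many of the changed bases were the same in all of these genes. Over the whole coding sequence of 1473 bases, Cyp2c37 was 96.1% identical to Cyp2c50 and 95.1% to Cyp2c54, and Cyp2c50 and Cyp2c54 were 95.2% identical. Cyp2c29 was 83.0% identical to Cyp2c37, 82.8% to Cyp2c50, 82.2% to Cyp2c54 and 77.5% to Cyp2c55. The closest coding relatives of Cyp2c29 were Cyp2c39 (89.5%) and Cyp2c38 (89.1%), which are not among the 5.

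That likeness bears on how reads can be told apart. Each transcript was divided into all windows of 50 bases, and a window was counted as shared when another gene's transcript held the same 50 bases. Cyp2c37 shared 30.1% of its windows, Cyp2c50 30.7% and Cyp2c54 25.7%, chiefly with each other. Cyp2c29 shared 2.08%, of which 34 windows were in Cyp2c53-ps, and Cyp2c55 shared 0.514%. Cyp2c29 had 0 windows in common with any of the 4 neighbours. Reads from shared windows cannot be assigned by sequence alone, and the handling of such reads is not given in the sources used here, so the separate levels of Cyp2c37, Cyp2c50 and Cyp2c54 are uncertain to that extent.

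RefSeq (GRCm38.p6) gave a start-site region for 4 of the 5 genes. The 250 bases before the start site are printed for Cyp2c29, Cyp2c37 and Cyp2c50, because the Cyp2c37 and Cyp2c50 stretches were close to each other and not to Cyp2c29. Capitals mark matches, on either strand, to the nuclear receptor half-sites AGGTCA and AGTTCA, to CAAAGTCCA or CAAAGTTCA (HNF4A), to TTGCGCAA (C/EBP) or to TATAAA.
Cyp2c29 (chr19:39286835-39287084, plus strand): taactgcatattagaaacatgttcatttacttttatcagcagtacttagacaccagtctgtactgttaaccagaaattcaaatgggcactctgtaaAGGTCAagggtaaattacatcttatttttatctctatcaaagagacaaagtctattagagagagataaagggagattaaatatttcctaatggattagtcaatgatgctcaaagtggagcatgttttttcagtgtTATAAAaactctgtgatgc
Cyp2c37 (chr19:39992174-39992423, plus strand): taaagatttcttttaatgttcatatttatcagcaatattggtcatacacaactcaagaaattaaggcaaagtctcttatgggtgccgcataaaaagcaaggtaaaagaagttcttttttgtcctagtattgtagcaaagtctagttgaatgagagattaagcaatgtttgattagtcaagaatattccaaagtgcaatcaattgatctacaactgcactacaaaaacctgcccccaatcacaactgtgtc
Cyp2c50 (chr19:40089429-40089678, plus strand): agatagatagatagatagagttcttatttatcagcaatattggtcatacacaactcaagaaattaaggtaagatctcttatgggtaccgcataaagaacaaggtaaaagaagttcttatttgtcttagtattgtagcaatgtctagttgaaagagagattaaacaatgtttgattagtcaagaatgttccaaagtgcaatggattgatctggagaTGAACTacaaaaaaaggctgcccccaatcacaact
The RefSeq start site of Cyp2c29 lies inside the GENCODE gene, downstream of its first annotated base. Aligned end to end, the Cyp2c37 and Cyp2c50 stretches were 84.3% identical, whereas Cyp2c29 was 52.6% identical to Cyp2c37 and 52.2% to Cyp2c50. Cyp2c29 held AGGTCA beginning at position -154 from the start site and TATAAA beginning at -19. Cyp2c50 held AGTTCA on the opposite strand beginning at -35, and Cyp2c55, not printed, held TATAAA beginning at -29. Of 32851 windows of 300 bases in the RefSeq table, 16.3% held AGGTCA, 14.0% AGTTCA and 13.6% TATAAA, so such matches are common. The longer words were rarer, with CAAAGTCCA in 0.475%, CAAAGTTCA in 0.39% and TTGCGCAA in 0.183% of windows, and these 4 genes had no match to them. Cyp2c37 had no match to any of the 6 words in its 250 bases.

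Total counts ran from 21290169 to 33810573 per library. The tissue label was checked with the hepatocyte markers Alb, Apoa1, Ttr, Serpina1a and Cyp2e1, which together made up between 87638 and 124297 CPM (counts scaled to one common library total) in every library. Libraries are named by diet and mouse number. Red 186 and Tangerine 216 stood apart. In Red 186 the adipose markers summed to 9.94 CPM (at most 0.200 CPM in any other library) and the T cell markers to 159 CPM (at most 4.25 CPM elsewhere). In Tangerine 216 the pancreas markers summed to 11.1 CPM (at most 0.330 CPM elsewhere). Correlations with Cyp2c29, the difference in Cyp2c55 between tomato types and the T cell calls are given with and without them. Intestinal epithelium markers, looked at because Cyp2c55 is known best from the colon, summed to between 1.21 and 9.42 CPM over all libraries, and 4 of the 6 were at 0 in all tangerine libraries.

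Cyp2c29, an epoxygenase long known for its induction by phenobarbital, was the most abundant of the 5 (levels are CPM, counts scaled by edgeR's trimmed mean of M values). On control it ran from 563 to 986 CPM with a median of 687 CPM. On red it ran from 919 to 1581 CPM with a median of 1194 CPM, and on tangerine from 787 to 1251 CPM with a median of 1052 CPM. Only Control 159 reached into the red range, and only Control 159 and Control 182 (802 CPM) into the tangerine range, so that 10 of 12 red and 9 of 12 tangerine libraries lay above every control.

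Cyp2c50, an epoxygenase of arachidonic and linoleic acid, differed less between diets. Its range was 298 to 440 CPM on control (median 353 CPM), 298 to 552 CPM on red (median 420 CPM) and 368 to 675 CPM on tangerine (median 444 CPM). All 12 tangerine libraries lay above the control median and 7 above every control, against 9 and 5 red libraries. The groups overlapped broadly, and the lowest red mouse matched the lowest control.

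Cyp2c54, a close relative with similar activity, ran from 103 to 222 CPM on control (median 151 CPM), from 99.8 to 274 CPM on red (median 171 CPM) and from 149 to 350 CPM on tangerine (median 194 CPM). Above every control lay 3 red and 5 tangerine libraries. The red range included the whole control range.

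Cyp2c37, which hydroxylates arachidonic acid, was less abundant. It ran from 36.7 to 75.6 CPM on control (median 50.7 CPM), from 37.2 to 96.1 CPM on red (median 61.0 CPM) and from 55.0 to 102 CPM on tangerine (median 61.8 CPM). All 12 tangerine and 10 red libraries lay above the control median, but only 2 and 3 of them above every control.

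Cyp2c55, an arachidonic acid hydroxylase and epoxygenase, was scarce in these livers, with 43 to 169 counts per library. It ran from 2.00 to 3.15 CPM on control (median 2.39 CPM), from 2.16 to 5.26 CPM on red (median 3.39 CPM) and from 1.84 to 3.33 CPM on tangerine (median 2.27 CPM). Above every control lay 7 red libraries and 1 tangerine library. Tangerine and control covered nearly the same range.

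**Figure D1:**
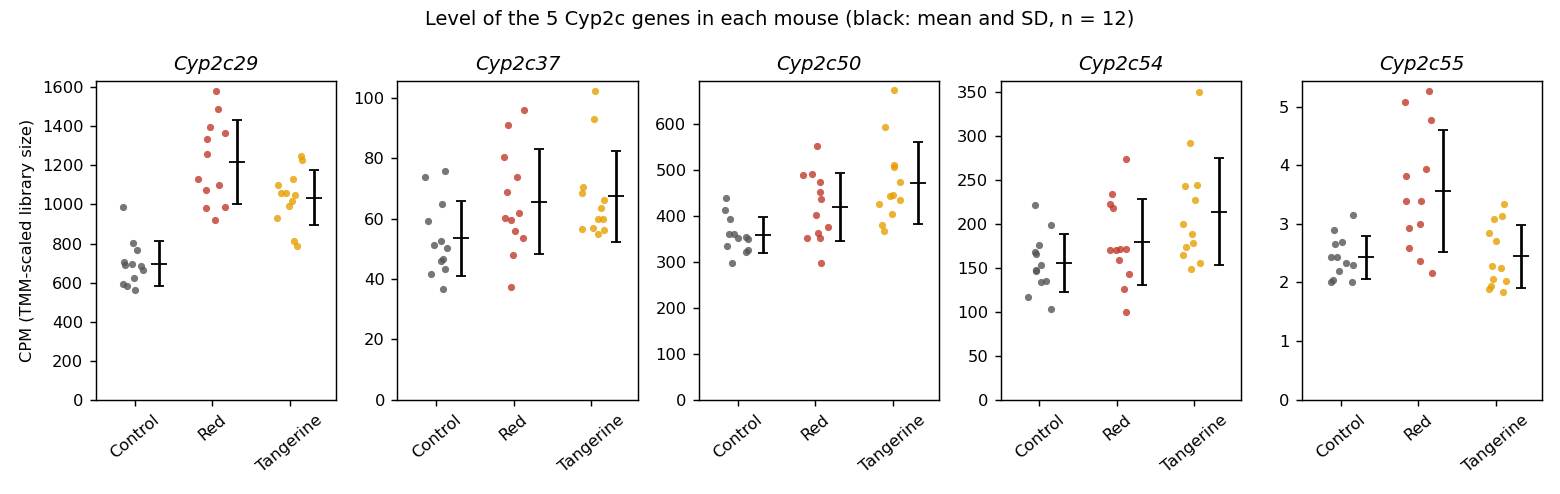
Each point is the level of a gene in 1 mouse, in CPM on a linear axis from 0, for control, red and tangerine diets, and the black marks give the mean and SD (n = 12). Cyp2c29 was the gene in which 10 red and 9 tangerine mice exceeded every control, whereas Cyp2c37, Cyp2c50 and Cyp2c54 overlapped broadly between diets and 7 red mice and 1 tangerine mouse exceeded every control in Cyp2c55.

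Divided by annotated exon length, the order of levels was the same in each diet. On control Cyp2c29 ran from 278 to 487 CPM per kb, Cyp2c50 from 164 to 242, Cyp2c54 from 57.9 to 124, Cyp2c37 from 20.1 to 41.5 and Cyp2c55 reached at most 1.58. Neighbours in this order did not overlap in any diet, although some lay close: on red the highest Cyp2c37 library had 52.7 CPM per kb and the lowest Cyp2c54 library 55.9 CPM per kb.

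As fold changes from the edgeR fit, Cyp2c29 stood at a log2 value of 0.81 (SE 0.093) for red against control and 0.57 (SE 0.093) for tangerine against control. For red against control the neighbours stood at 0.30 (Cyp2c37, SE 0.13), 0.23 (Cyp2c50, SE 0.092), 0.21 (Cyp2c54, SE 0.14) and 0.55 (Cyp2c55, SE 0.13). For tangerine against control they stood at 0.33 (Cyp2c37, SE 0.13), 0.40 (Cyp2c50, SE 0.092), 0.46 (Cyp2c54, SE 0.14) and 0.01 (Cyp2c55, SE 0.13). These columns share their control mice. Of 14068 tested genes 0.149% had an edgeR adjusted p under 0.05 for red (0.0498% higher and 0.0995% lower). The share was 0.0142% for tangerine and 0.00711% for the average of both tomato diets. Calls of the 5 genes are not given, since these contrasts were treated as having chosen the genes.

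The levels relative to Cyp2c29 are given without a test. Cyp2c50 amounted to 52.4% ± 7.79 of the Cyp2c29 CPM on control, 34.9% ± 5.85 on red and 45.8% ± 6.52 on tangerine (SD, n = 12). Cyp2c54 amounted to 22.6% ± 4.31, 14.9% ± 3.51 and 20.6% ± 4.26, and Cyp2c37 to 7.79% ± 2.06, 5.37% ± 0.937 and 6.53% ± 1.14, in the same order of diets. In these 3 genes the mean share was lowest on red, the diet with the highest mean Cyp2c29. Cyp2c55 amounted to 0.358% ± 0.0873, 0.297% ± 0.0848 and 0.239% ± 0.0521.

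The question of how far the neighbours follow Cyp2c29 was put to the variation that remained after each diet's mean was removed, on log2 CPM with a prior count of 2. Cyp2c37, Cyp2c50 and Cyp2c54 followed it in part, and Cyp2c55 showed no detectable relation. Pearson's r over 36 mice was 0.54 for Cyp2c37 (Spearman's rho 0.40), 0.56 for Cyp2c50 (rho 0.47), 0.55 for Cyp2c54 (rho 0.46) and 0.11 for Cyp2c55 (rho 0.044). In two-sided permutation tests within diets, adjusted over the 4 genes, p for r was 0.002, 0.0019, 0.0019 and 0.531, and p for rho was 0.0274, 0.0151, 0.0151 and 0.807. The variance shared with Cyp2c29 was thus 28.9%, 30.9%, 30.2% and 1.31%.

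The values were lower without the extremes. Without Red 156 and Control 159, the libraries farthest from the median of Cyp2c29, r was 0.40 for Cyp2c37, 0.45 for Cyp2c50 and 0.42 for Cyp2c54, each with an adjusted permutation p of 0.0358, and 0.051 for Cyp2c55. Red 156 was the lowest red mouse for all 4 of Cyp2c29, Cyp2c37, Cyp2c50 and Cyp2c54, at 919, 37.2, 298 and 99.8 CPM. Control 159 was the highest control mouse for the same 4 genes, at 986, 75.6, 440 and 222 CPM. In Cyp2c55 these mice stood at 2.59 and 2.44 CPM, inside the control range. Without Red 186 and Tangerine 216, r was 0.57, 0.60, 0.58 and 0.15 for Cyp2c37, Cyp2c50, Cyp2c54 and Cyp2c55.

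Per unit of log2 change in Cyp2c29 from mouse to mouse, Cyp2c37 changed by 0.79 (SE 0.22), Cyp2c50 by 0.55 (SE 0.15), Cyp2c54 by 0.87 (SE 0.24) and Cyp2c55 by 0.16 (SE 0.24). These slopes multiplied by the Cyp2c29 fold change give a value to set beside each diet difference. On red the products were 0.63 for Cyp2c37, 0.45 for Cyp2c50 and 0.71 for Cyp2c54, all above the fitted log2 fold changes of 0.30, 0.23 and 0.21. On tangerine they were 0.45, 0.32 and 0.50, beside fitted values of 0.33, 0.40 and 0.46. For Cyp2c55 the product was 0.13 on red, where the fitted value was 0.55, and 0.09 on tangerine, where the fitted value was 0.01 (SE 0.13). No test was made of these comparisons.

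**Figure D2:**
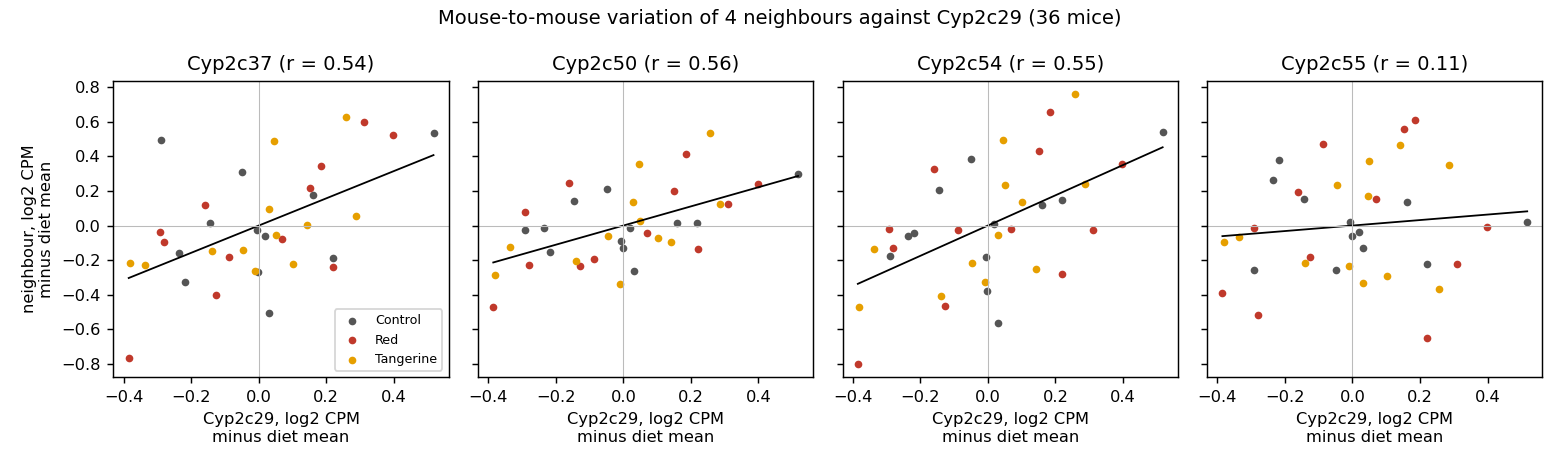
Each point is 1 of 36 mice; the x axis gives Cyp2c29 and the y axis a neighbour, both as log2 CPM minus the mean of the mouse's diet, with the least-squares line. The points slope upward for Cyp2c37, Cyp2c50 and Cyp2c54 (r of 0.54, 0.56 and 0.55) and show no clear slope for Cyp2c55 (r of 0.11, slope 0.16 with SE 0.24).

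Within single diets the relation was uneven and n was 12. On tangerine r was 0.56 for Cyp2c37, 0.63 for Cyp2c50 and 0.67 for Cyp2c54 (rho 0.59, 0.63 and 0.71). On red it was 0.74, 0.60 and 0.54 (rho 0.61, 0.52 and 0.38), and on control 0.24, 0.43 and 0.45 (rho 0, 0.26 and 0.28). For Cyp2c55 r was 0.20 on tangerine, 0.21 on red and -0.20 on control (rho 0.13, 0.17 and -0.17). After adjustment over these 12 relations none of the permutation tests passed: adjusted p for r was lowest for Cyp2c37 on red (0.0719), and the lowest adjusted p for rho was 0.137. The pooled relation is therefore not established inside any one diet. In control mice the values for Cyp2c50 and Cyp2c54 rested on Control 159 and Control 245, without which r was -0.014 and 0.0083. Without the mice farthest from each median, Red 156 and Red 175 on red and Tangerine 195 and Tangerine 217 on tangerine, r was 0.53, 0.37 and 0.25 on red and 0.50, 0.59 and 0.67 on tangerine for Cyp2c37, Cyp2c50 and Cyp2c54. The same omissions gave 0.13 for Cyp2c37 on control, and for Cyp2c55 -0.66 on control, 0.11 on red and 0.18 on tangerine. A permutation test of whether r differed between the diets gave an adjusted p of 0.807 for each of the 4 genes.

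The neighbours were then compared with each other in the same way, a set of 6 pairs added after the first values were seen. Cyp2c50 and Cyp2c54 had r of 0.93 (rho 0.90), Cyp2c37 and Cyp2c50 0.85 (rho 0.84), and Cyp2c37 and Cyp2c54 0.77 (rho 0.68). Adjusted over the 6 pairs, permutation p for r was 2e-05 in each, which rests on the smallest p that the permutations can give (1e-05), and p for rho was at most 8e-05. Leaving out the mice farthest from the median of the first gene gave 0.90, 0.79 and 0.68. Tangerine 225 and Tangerine 226 were the highest and second highest tangerine mice in all 3 of these genes. These are also the genes that share 50-base windows, and the part of shared reads in their covariation was not tested.

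Cyp2c55 followed none of them past the threshold. Its r was 0.36 with Cyp2c54 (rho 0.28, adjusted permutation p 0.0753 for r and 0.172 for rho), 0.28 with Cyp2c50 (rho 0.18, adjusted p 0.17 and 0.358) and 0.13 with Cyp2c37 (rho 0.098, adjusted p 0.478 and 0.586). Without the farthest mice these were 0.43, 0.36 and 0.14. Tangerine 225, highest of its diet in the other 3 neighbours, was the lowest of its diet in Cyp2c55. Red 166, by contrast, was the highest of its diet in Cyp2c50, Cyp2c54 and Cyp2c55. With so few reads, counting error made up 29.4% of the variance of Cyp2c55 within diets, against 0.161% for Cyp2c29 and at most 1.17% for the other 3 genes, so a weak relation would be hard to detect.

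**Figure D3:**
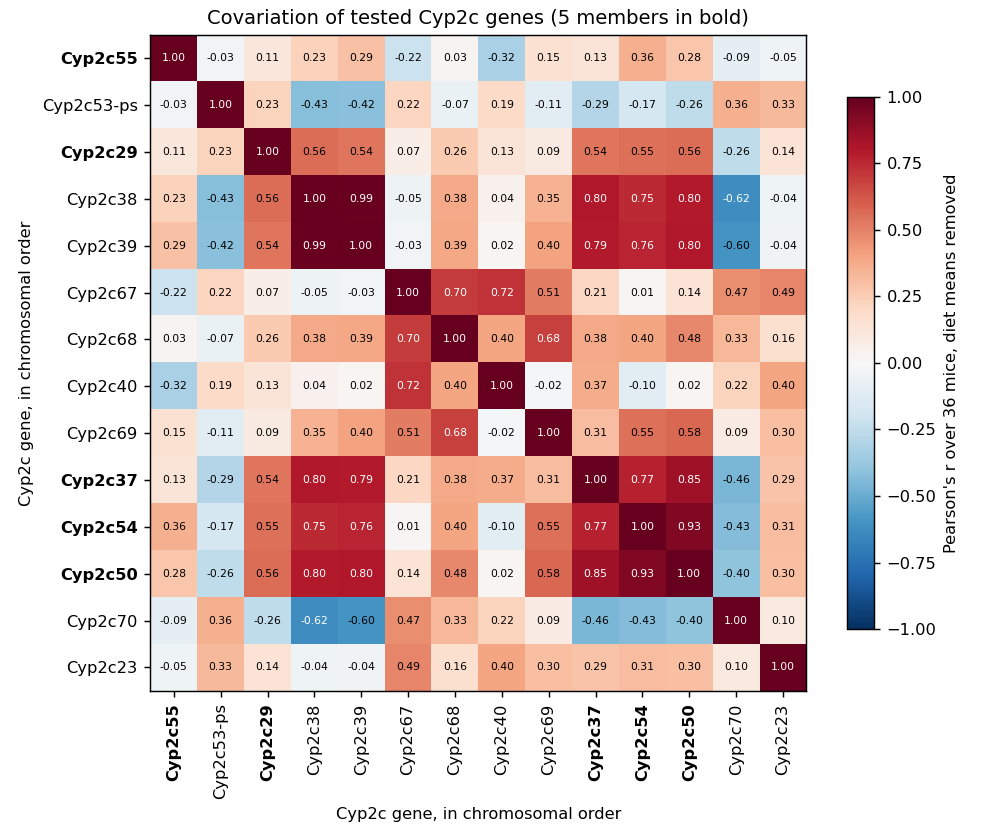
Each cell is Pearson's r between 2 tested Cyp2c genes over 36 mice after removal of diet means, with genes in chromosomal order on both axes and the 5 listed genes in bold. A dark block joins Cyp2c37, Cyp2c54 and Cyp2c50 (r of 0.77 to 0.93), Cyp2c29 has paler cells with them (0.54 to 0.56), and Cyp2c55 stands outside. The unlisted Cyp2c38 and Cyp2c39 have r of 0.75 to 0.80 with the same block.

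Other measures that could move with these genes were set beside them, in a family of 20 relations over 36 mice with diet means removed. The mean of 10 tested pericentral genes, which mark hepatocytes around the central vein, had r of 0.58 with Cyp2c37 (rho 0.60, adjusted permutation p 0.0022 for r and 0.0044 for rho), and 0.53 without the farthest mice. With Cyp2c50 it had r of 0.42 (rho 0.38, adjusted permutation p 0.105 and 0.28) and with Cyp2c54 0.33 (rho 0.29, adjusted permutation p 0.335 and 0.523). With Cyp2c29 it had r of 0.29 (rho 0.22, adjusted permutation p 0.44 and 0.595), and with Cyp2c55 -0.011. Of the 20 relations the one with Cyp2c37 was the only one to pass. With that mean as a covariate, the r of Cyp2c37, Cyp2c50 and Cyp2c54 with Cyp2c29 was 0.47, 0.50 and 0.50. A score of the circadian clock, the first principal component of 14 clock genes (80.3% of their variance), averaged 0.803 ± 3.02 on control, -2.56 ± 2.36 on red and 1.76 ± 2.29 on tangerine (SD, n = 12). Its r with the 5 genes lay between -0.083 and 0.17, and with it as covariate the 3 correlations were 0.53, 0.55 and 0.54. Total count as covariate gave 0.55, 0.58 and 0.60, and mouse number 0.56, 0.56 and 0.55.

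Against the whole transcriptome the neighbours ranked high without leading. Over 14067 other tested genes the median r with Cyp2c29 was -0.0028, and the central 90% of genes lay between -0.30 and 0.33. Cyp2c50 ranked 29th, Cyp2c54 39th, Cyp2c37 47th and Cyp2c55 3762nd. Restricted to genes whose log2 CPM averaged 1 or more, the 10 most like Cyp2c29 over the 36 mice were Pink1 (r of 0.66), Suox (0.65), Gcdh (0.64), Sardh (0.61), Apol7a (0.59), Rcan2 (0.59), Acnat2 (0.59), Hadh (0.58), Ctsb (0.58) and Serhl (0.58). Pink1 encodes a kinase of mitochondrial quality control, Suox sulfite oxidase, Gcdh a dehydrogenase of lysine breakdown, Sardh sarcosine dehydrogenase and Hadh an enzyme of fatty acid oxidation. The lowest were Slc6a8, the creatine transporter (-0.59), Gria3, a glutamate receptor subunit (-0.57), and Syncrip, an RNA-binding protein (-0.55).

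**Figure D4:**
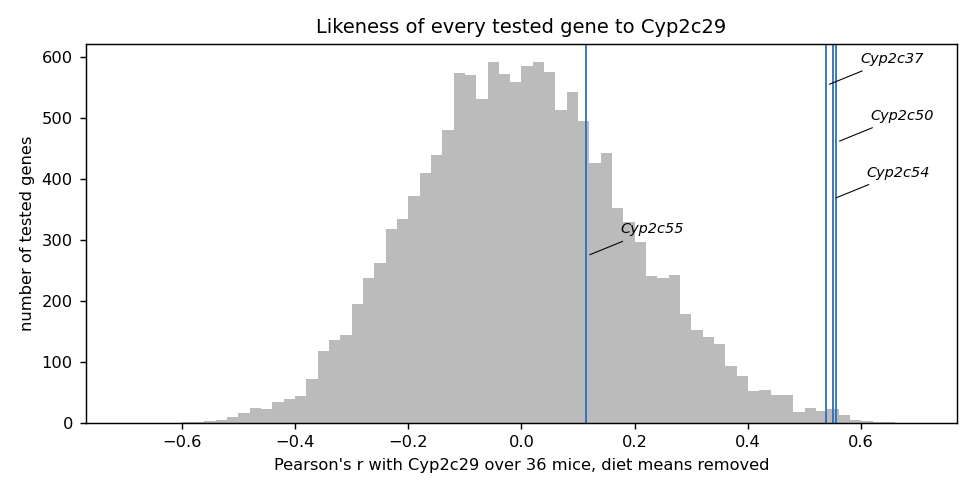
The histogram counts tested genes by Pearson's r with Cyp2c29 over 36 mice (x axis, diet means removed), and vertical lines mark the 4 neighbours. Cyp2c37, Cyp2c50 and Cyp2c54 lie in the right tail, beyond the 0.33 that bounds the upper 5% of genes, and Cyp2c55 lies near the middle at 0.11.

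The other Cyp2c genes show which covary with Cyp2c29 without belonging to the 5. Cyp2c38 had r of 0.56 with it (rank 23) and Cyp2c39 0.54 (rank 46), as high as the listed neighbours. Against control, Cyp2c38 stood at a log2 fold change of -0.09 on red (SE 0.30) and -0.06 on tangerine (SE 0.30). Cyp2c39 stood at -0.11 and -0.02 (SE 0.28 each). Each of these 4 values lay within 1 SE of 0. These SEs were larger than those of the listed neighbours, and a difference from the neighbours was not tested. Cyp2c38 shared 2 windows of 50 bases with Cyp2c29 and Cyp2c39 shared 9. Cyp2c38 and Cyp2c39 also had r of 0.80 and 0.79 with Cyp2c37, with which they shared 16 and 0 windows. With Cyp2c50 their r was 0.80 and 0.80, and with Cyp2c54 0.75 and 0.76, at 0 shared windows in each of these pairs. For Cyp2c68 the r with Cyp2c29 was 0.26, for Cyp2c53-ps 0.23, for Cyp2c23 0.14, for Cyp2c40 0.13, for Cyp2c69 0.09, for Cyp2c67 0.07 and for Cyp2c70 -0.26. Of the 9 other Cyp2c genes tested, 1 passed for red against control, Cyp2c53-ps (log2 fold change 1.52, SE 0.25, edgeR adjusted p 0.00367), at 0.302 to 1.66 CPM on red and 0.157 to 0.505 CPM on control. Its edgeR adjusted p was 0.0389 with the clock score and 0.00544 with mouse number as covariate, and 0.000608 without Red 186 and Tangerine 216. DESeq2 did not call it, where a gene left without an adjusted p also counted as not called. Its 34 windows in common with Cyp2c29 make its counts uncertain. With edgeR none of the 9 passed in tangerine mice against controls or between the tomato diets, where 2 and 3 had an unadjusted p under 0.05 and DESeq2 called 0. Over all tested genes 13.3% had an unadjusted p under 0.05 for red against control, 5.47% for tangerine against control and 15.1% between the tomato types. Cyp2c65 and Cyp2c66 had at most 3 counts in any library.

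The tomato types were also compared directly. This contrast leaves out the control mice but uses the same red and tangerine libraries as the contrasts above, so it is not independent of the choice of genes. Cyp2c55 was lower on tangerine than on red in the fit without covariates, and none of the other 4 passed. The log2 difference was -0.54 (SE 0.13), at an adjusted p of 0.026 in edgeR's quasi-likelihood test, with a mean of 2.45 ± 0.539 CPM on tangerine and 3.56 ± 1.04 CPM on red (SD, n = 12). Cyp2c55 was thus 1 of 5 genes called, where 1.71% of all tested genes were (0.732% higher and 0.981% lower on tangerine). Clock genes also differed in this contrast, 3 of 14 higher and 4 lower, among them Nr1d2 (log2 fold change 0.75), Npas2 (-2.51) and Tef (1.08), with edgeR adjusted p of 0.0173, 0.0224 and 0.0271 (0.0528, 0.0553 and 0.0997 without Red 186 and Tangerine 216). Intestinal epithelium markers had median sums of 3.11 CPM on tangerine, 4.19 CPM on red and 4.46 CPM on control. Lgals4, the 1 tested gene of that list, had a log2 fold change of -0.47 for tangerine against red (SE 0.25, edgeR adjusted p 0.361). Whether intestinal RNA contributed to the Cyp2c55 counts was not tested. The call did not hold without Red 166 (adjusted p 0.0542), Red 199 (0.0532), Tangerine 216 (0.0614) or Tangerine 217 (0.0513), or without Red 186 and Tangerine 216 together (0.0814). With mouse number as covariate the adjusted p was 0.0559, and with the clock score it was 0.291, at a log2 fold change of -0.48.

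For the other 4 genes the difference between tomato types is bounded by its 95% interval. The log2 fold change of tangerine against red was -0.24 for Cyp2c29 (interval -0.42 to -0.05, edgeR adjusted p 0.199), 0.04 for Cyp2c37 (-0.23 to 0.31, adjusted p 0.92), 0.17 for Cyp2c50 (-0.02 to 0.36, adjusted p 0.383) and 0.25 for Cyp2c54 (-0.04 to 0.54, adjusted p 0.414). Cyp2c29 and Cyp2c55 thus lay on the side of red, and Cyp2c50 and Cyp2c54 on the side of tangerine, in values that apart from Cyp2c55 did not pass.

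**Figure D5:**
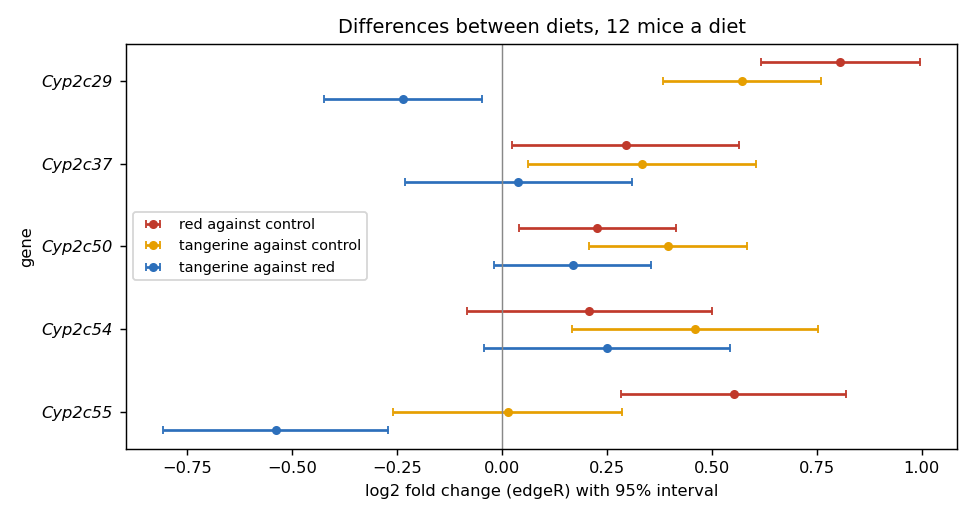
Points give the edgeR log2 fold change (x axis) of each of the 5 genes for red against control, tangerine against control and tangerine against red, with 95% intervals, 12 mice a diet. Cyp2c29 lies farthest right against control (0.81 and 0.57), and Cyp2c55 is at 0.55 on red, 0.01 on tangerine and -0.54 between the tomato diets.

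The receptors that act on Cyp2c genes were measured in the same livers. Nr1i3 averaged 20.2 ± 5.26 CPM on control, 21.1 ± 4.20 on red and 22.1 ± 8.98 on tangerine, and Nr1i2 58.8 ± 11.3, 53.1 ± 10.9 and 55.7 ± 10.0 CPM (SD, n = 12). Rxra averaged 431 ± 49.6, 410 ± 48.5 and 444 ± 60.9 CPM. Diet differences of these 3 genes were within the spread between mice, with edgeR adjusted p-values of at least 0.472 in every contrast. With diet means removed, Nr1i3 had r of 0.48 with Cyp2c29, 0.39 with Cyp2c37, 0.51 with Cyp2c50, 0.61 with Cyp2c54 and 0.0020 with Cyp2c55 over 36 mice. Cyp2b10, a classical CAR target, had r of 0.47, 0.57, 0.55, 0.54 and 0.0026 with the same genes, although it was scarce at 0.036 to 2.13 CPM. Both thus varied with Cyp2c29, Cyp2c37, Cyp2c50 and Cyp2c54 and not measurably with Cyp2c55. Another gene of the CAR and PXR list, Aldh1a7, had r of 0.65 with Cyp2c55. That was the highest r with Cyp2c55 among genes whose log2 CPM averaged 1 or more. Nr1i2 and Rxra gave smaller values, 0.35 and 0.27 with Cyp2c29. Cyp3a11, of the same list and far more abundant than Cyp2b10 (mean 514 CPM), had r of 0.47 with Cyp2c29, and Por had 0.33. These correlations are descriptions without a test.

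Of 31 listed genes for CAR, PXR, their partner and their targets, 28 were tested. None passed in any contrast with edgeR, while 9 had an unadjusted p under 0.05 for red against control, 4 for tangerine against control and 4 between the tomato types, and DESeq2 called 2, 0 and 1. Over all tested genes the shares at that unadjusted p were 13.3%, 5.47% and 15.1%. Their median log2 fold change was -0.02 on red and 0.09 on tangerine against control, beside -0.0047 and -0.012 over all tested genes. Cyp2b10 stood at 1.39 on red (SE 0.56, edgeR adjusted p 0.275) and 1.55 on tangerine (SE 0.56, adjusted p 0.683). Of 15 tested genes of arachidonic acid metabolism, which includes the epoxide hydrolases that consume the products of Cyp2c enzymes, none passed, with 2, 2 and 3 at an unadjusted p under 0.05, beside those same shares of all genes, and 0 called by DESeq2. Among 10 tested pericentral genes, Cyp1a2 was higher on tangerine than on control (log2 fold change 0.54, SE 0.095, edgeR adjusted p 0.0115), and Cyp1a2, Lect2 and Gulo were higher on tangerine than on red (0.44, 0.36 and 0.25, adjusted p 0.0155, 0.00564 and 0.0237). Of 10 tested periportal genes, Arg1 was lower on red than on control (-0.38, adjusted p 0.0167), and Arg1 and Cps1 were higher on tangerine than on red (0.31 and 0.40, adjusted p 0.0251 and 0.0446). Adjusted for the clock score, edgeR called 0 genes between the tomato types (1601 at an unadjusted p under 0.05), so none of these calls between tomato types held in that fit. The clock score itself averaged -2.56 on red and 1.76 on tangerine, so that fit cannot fully separate it from diet. The log2 fold changes in that fit were 0.28 for Cyp1a2, 0.35 for Lect2, 0.23 for Gulo, 0.15 for Arg1 and 0.22 for Cps1. Their edgeR adjusted p was then 0.336 for Cyp1a2, 0.198 for Lect2, 0.259 for Gulo, 0.468 for Arg1 and 0.48 for Cps1. Arg1 on red against control was also lost there (0.297). The call of Cyp1a2 on tangerine against control was lost with mouse number as covariate (0.0838). Without Red 186 and Tangerine 216 the calls of Arg1 and Cps1 between tomato types were lost (0.0967 and 0.112). The T cell markers Lck, Thy1 and Trbc2 passed as lower on tangerine than on red (-2.59, -2.37 and -2.89, edgeR adjusted p 0.0413, 0.0413 and 0.0359), with 1 library, Red 186, far above the rest. The median sums of the T cell list were 2.64 CPM on tangerine and 2.66 CPM on red. Without Red 186 and Tangerine 216 the values were 0.12, -0.021 and 0.20 (adjusted p 0.871, 0.972 and 0.758), and DESeq2 called none of the 3 on all libraries. No gene of the hepatocyte, Kupffer cell, sinusoidal endothelium, cholangiocyte or intestinal lists passed in any contrast with edgeR or DESeq2.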

How the data were processed

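Liver RNA was purified with Qiagen kits, and a NEXTflex Rapid Directional kit was used for the libraries, per the labels' protocols. The authors deposited 1 table of raw counts per gene, without normalization. The submitters' processing notes name FastQC, Trimmomatic, edgeR and GRCm38.p6. The aligner, counting program, annotation release, strand setting and handling of reads shared between genes are not given in the sources used here.

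Identifiers were matched to GENCODE M21 symbols (53620 of 53715). The genes and lists were chosen with earlier results of these data known. Genes passing filterByExpr (14068) were fitted in edgeR 4.0.16 (quasi-likelihood, robust, trimmed mean of M values, all 36 libraries, no covariates), with p-values adjusted by Benjamini-Hochberg over all of them and a threshold of 0.05. DESeq2 1.42.0 was an alternative. Values of called list genes with covariates or without Red 186 and Tangerine 216 were added after seeing the data. Intervals used the SE with 33 residual degrees of freedom. Correlations used log2 CPM with a prior count of 2 and 100000 permutations of mice within diets (two-sided). The edgeR and permutation tests were tested on simulated data. Named genes were the 5 genes, other Cyp2c genes, Nr1i2, Nr1i3, Rxra and Cyp2b10, and up to 3 called genes of each other list (by p). The 10 genes most and 3 least like Cyp2c29 were named too, and Cyp3a11 and Por were added later. Coding identity came from global alignment in Biopython 1.88. The labels mention no molecular identifiers, so counting errors cover sampling of reads only.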

Additional observations from a re-analysis of the deposited data

Results flagged for a closer look

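Cyp2c55 differed between the tomato diets in the fit without covariates. In edgeR's quasi-likelihood test the log2 difference, tangerine minus red, was -0.54 at an adjusted p of 0.026, with means of 2.45 CPM on tangerine and 3.56 CPM on red and 43 to 169 counts per library. The gene was chosen with values of these libraries known, so the p is not independent evidence. The adjusted p was above 0.05 without Red 166 (0.0542), Red 199 (0.0532), Tangerine 216 (0.0614) or Tangerine 217 (0.0513), and without Red 186 and Tangerine 216 together (0.0814). It was also above 0.05 with mouse number (0.0559) or the clock score (0.291) as covariate.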

How the results depend on the processing

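No paired analysis was possible because no mouse number occurs in more than 1 diet. The correlations of Cyp2c37, Cyp2c50, Cyp2c54 and Cyp2c55 with Cyp2c29 kept their direction and side of the threshold under all 44 alternatives each; leaving out each library gave r of 0.47 to 0.64, 0.50 to 0.60, 0.49 to 0.59 and 0.05 to 0.20. The tests of a difference between diets kept their side with Spearman's rho. Leaving out each library gave tangerine against red values of -0.27 to -0.20 for Cyp2c29, -0.03 to 0.10 for Cyp2c37, 0.11 to 0.21 for Cyp2c50, 0.16 to 0.32 for Cyp2c54 and -0.59 to -0.48 for Cyp2c55. Cyp2c37, at 0.04, changed sign with the clock score (-0.067) and mouse number (-0.0063) as covariates and without Red 156 (-0.015), Tangerine 225 (-0.030) or Tangerine 226 (-0.012). Cyp2c55 no longer passed with the clock score (-0.48) or mouse number (-0.53) as covariate or without Red 186 and Tangerine 216 (-0.50), a setting chosen after seeing the data.

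The number of genes past the threshold moved more. The edgeR counts were 21 (red against control), 2 (tangerine against control), 1 (both tomato diets against control) and 241 (tangerine against red). With the DESeq2 test these were 164, 6, 12 and 391. Without a low-count filter the last 2 were 6 and 136. The clock score as covariate left 4 in the first contrast and, with edgeR, 0 in the last (1601 at an unadjusted p under 0.05). Mouse number as covariate left 1 in the second and 32 in the last. Without Red 186 and Tangerine 216 there were 53 in the first, 2 in the third and 86 in the last. The cause was not tested. Depth limits Cyp2c55 most, at a median of 71.5 counts.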

Other observations

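The gene most like each neighbour was looked up in the same way as for Cyp2c29, a step added after the values were seen. Over 36 mice with diet means removed, Cyp2c55 was most like Aldh1a7, an aldehyde dehydrogenase of the CAR and PXR list, with r of 0.65. Next came Ugdh, which makes UDP-glucuronic acid, with 0.56, and Ces1g, a carboxylesterase, with 0.55. Aldh1a7 did not pass in any diet contrast (log2 fold change -0.07 on red, SE 0.095, edgeR adjusted p 0.809, and -0.23 on tangerine, SE 0.095, adjusted p 0.811, against control). Cyp2c54 was most like Cyp2c50 (0.93), Crls1, which makes cardiolipin, (0.84) and Maob, a monoamine oxidase, (0.83). Cyp2c37 was most like Cyp2c50 (0.85), Cyp2c38 (0.80) and Cyp2c39 (0.79). Cyp2c38 and Cyp2c39 had r of 0.99 with each other, with 94.2% identical coding bases and 194 windows of 50 bases in common.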
